A study of Homo sapiens with 9 samples.

Results

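INHBA and GLI3 are neighbouring genes on the short arm of chromosome 7, and their contacts were followed here in Hi-C data from growing and RAS-induced senescent (RIS) fibroblasts. They are 2 of the 20098 protein-coding genes of the annotation used. They were chosen with earlier results of these data known. The study had already singled out the INHBA promoter for altered enhancer contacts in the same Hi-C data. Their places were set as the hg19 promoter of INHBA at chr7:41745432 and the GLI3 gene at chr7:42000548-42276618. The window from 40 to 43.5 Mb covers 88 bins of 40 kb, of 69621 bins with values in all libraries. The INHBA promoter fell in the bin chr7:41720001-41760000 and the start of GLI3 in the bin chr7:42240001-42280000. The longest annotated form of GLI3 begins further out, at chr7:42303699, in the next bin. Both genes run on the minus strand, so the 3' end of GLI3 faces the INHBA promoter across 255 kb, and the promoters lie 531 kb apart.

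Hi-C counts ligated pairs of DNA fragments and so measures how often 2 places of the genome lie close together. All libraries came from IMR90, a line of human diploid lung fibroblasts, with a construct that fuses HRAS-G12V to the oestrogen receptor (ER:HRAS(G12V)). The 2 RIS libraries were from cells given 100 nM 4-hydroxytamoxifen (4OHT) for 6 days, which switches the fusion protein on, and the 3 growing libraries were from cells that carried the construct without 4OHT. Growing 3 carried an MSCV vector as well. The fusion was delivered by a retroviral vector. The RIS cells are therefore a model of senescence driven by 1 oncogene in 1 cell line, and the vehicle given to growing cells, if any, was not stated in the sources used here.

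INHBA encodes the inhibin beta A chain, which pairs with itself to form activin A, a secreted ligand of the TGF-beta family. Activin A binds type II and type I serine/threonine kinase receptors that signal through SMAD2 and SMAD3, is held back by follistatin, and is a known part of the senescence-associated secretory phenotype. GLI3 encodes a zinc finger transcription factor of the Hedgehog pathway that is cut to a repressor when the pathway is off. Mammalian chromosomes fold into domains whose ends are often marked by CTCF, a protein that halts loop extrusion by cohesin in a manner that depends on the strand of its motif. Transcribed and silent stretches also keep apart in the A and B compartments.

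The Hi-C libraries held between 109967509 and 180775315 recovered contacts, with both RIS libraries below all growing libraries. Growing 3 and RIS 2 had a larger share of duplicate reads than the other libraries. The direction of the INHBA contacts is therefore also given within both classes, and some other results within the libraries with few duplicates. The remaining results are not split by class. Contacts between chromosomes made up a larger share in RIS: over all bins the median share was 10.02%, 10.3% and 9.86% in growing 1, 2 and 3, and 12.8% and 12.9% in RIS 1 and 2. Their part in the results below was not tested.

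The core of the CTCF motif was searched on both strands of GRCh37, whose chromosome lengths equal those of the files. It was found 9 times in the window, in 9 of 88 bins, while 6.68% of all bins hold a match. The matches printed here are those that lay within 2 bins of a domain border described below. The core is in capitals and read 5' to 3' on its own strand.
CDK13 side, plus strand, chr7:40087413-40087425: ttatttCCACCAGAGGGCAgataaa
INHBA side, minus strand, chr7:41771969-41771981: cttgttCCAGTAGAGGGCActcaaa
GLI3 3' side, plus strand, chr7:42016887-42016899: gtttgaCCAGTAGGTGGCAgttcaa
MRPL32 side, plus strand, chr7:42981035-42981047: gccgctCCACTAGGGGGCAgcaggt
The match on the CDK13 side lay in an exon of CDK13, which encodes a kinase of transcription, 2 bins before the border at the SUGCT promoter. The match on the INHBA side lay 26.5 kb from the INHBA promoter, upstream of the gene, in an intron of INHBA-AS1, an antisense lncRNA at chr7:41733482-41818986. The remaining matches lay in introns, of GLI3 near its 3' end and of MRPL32, which encodes a mitochondrial ribosomal protein. By strand, the INHBA match faces lower coordinates and the others face higher coordinates. A match is a description of sequence, and CTCF binding was not analysed here.

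In growing cells the INHBA promoter bin lay on a domain border, and GLI3 lay beyond another, deeper border. Borders were called as dips of the insulation score, the log2 mean contact between the 520 kb on either side of a bin, relative to the chromosome. There were 6 of them in the window. The deepest, at chr7:41960001-42000000, lay between both genes, 240 kb from the INHBA promoter bin and next to the 3' end of GLI3, with a score of -1.63 ± 0.12 (SD, n = 3) in growing cells and -1.52 ± 0.11 (SD, n = 2) in RIS cells. The INHBA promoter bin was itself the centre of a border, at -1.19 ± 0.05 in growing cells and -0.91 ± 0.05 in RIS cells. On the far sides, the domain with INHBA at its edge reached to chr7:40160001-40200000, at the promoters of MPLKIP and SUGCT, and the domain with GLI3 reached to chr7:42880001-42920000. Weak dips at chr7:40800001-40840000, inside SUGCT, and at chr7:41040001-41080000 completed the list. Each border was found at the same bin or 1 bin away in all 5 libraries, apart from the dip in SUGCT, which was found in 4.

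**Figure D1:**
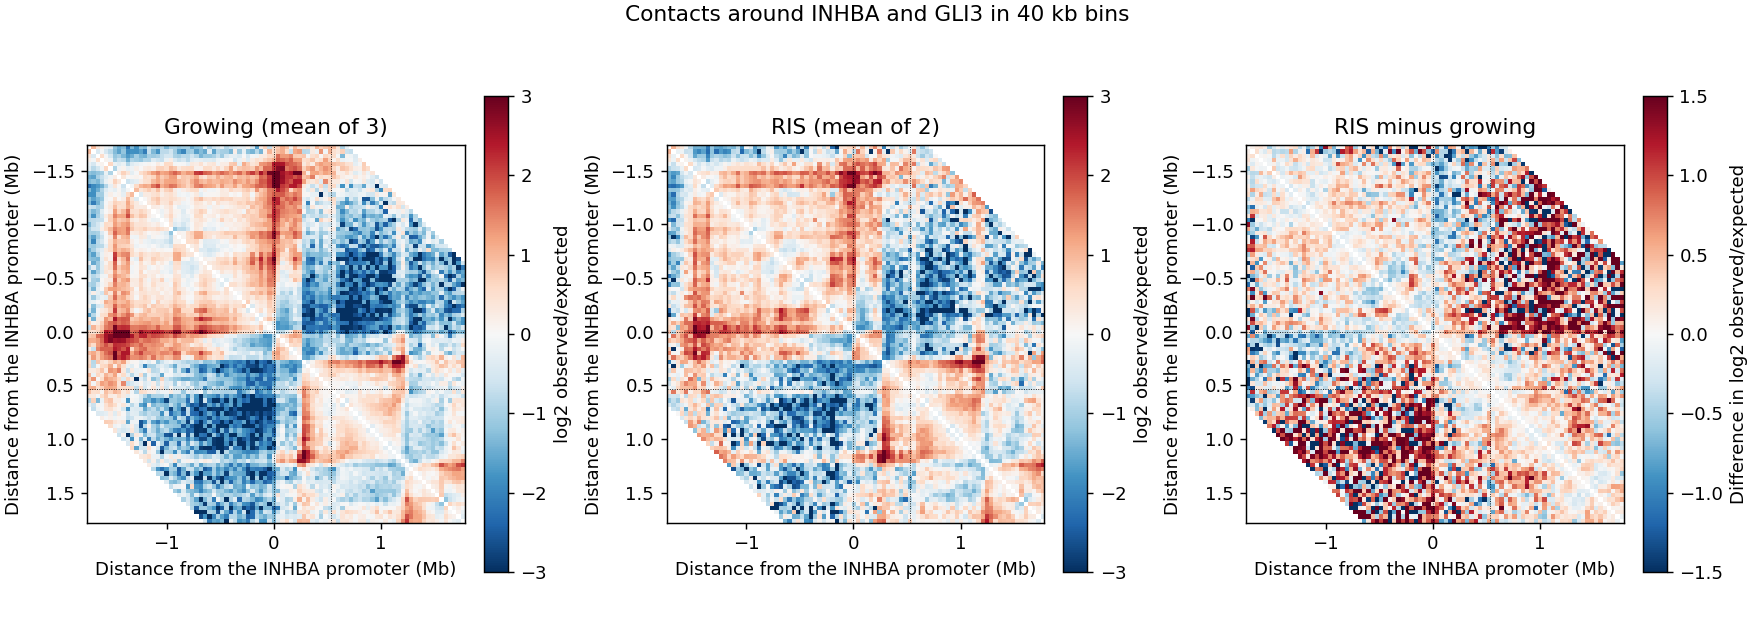
Contact maps of the window at 40 kb, drawn to a distance of 2.4 Mb, as log2 observed/expected (mean of 3 growing and of 2 RIS libraries) and their difference, with both axes as distance from the INHBA promoter in Mb and dotted lines at the promoters of INHBA and GLI3. The column at 0 is red towards SUGCT and blue beyond GLI3 in both conditions, and the difference is blue towards SUGCT and red beyond GLI3.

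The INHBA promoter bin made most of its distant contacts towards lower coordinates, with SUGCT and the stretch without protein-coding genes between SUGCT and INHBA. Contacts are given as observed/expected values, the balanced contacts over the mean of all pairs at the same distance in the same library. The highest value at 120 kb or more was with the bin chr7:40240001-40280000, in the 5' part of SUGCT at 1480 kb from INHBA, at 13.3, 14.5 and 14.1 in growing 1, 2 and 3 and 10.3 and 11.9 in RIS 1 and 2. The next were the bins chr7:40360001-40400000, chr7:40320001-40360000 and chr7:40280001-40320000, also in SUGCT, with growing means of 9.98, 8.30 and 8.31, and the intergenic border bin chr7:41040001-41080000, at 7.94 ± 0.70. SUGCT encodes a mitochondrial CoA-transferase. Averaged over the gene, the log2 observed/expected value with INHBA was 2.56 ± 0.03 in growing cells and 2.15 ± 0.04 in RIS cells, and no RIS library reached a growing library. The share of such averages that separate over the genome was not computed. With the stretch between SUGCT and INHBA the log2 value was 1.57 ± 0.05 in growing and 1.34 ± 0.00 in RIS cells.

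Past the promoter towards GLI3 the profile had a peak just before the deep border and was low beyond it. The peak had an observed/expected value of 2.08 ± 0.21 in growing and 2.76 ± 0.14 in RIS cells at chr7:41920001-41960000. At the border bin chr7:41960001-42000000 the value was 1.76 ± 0.34 in growing and 2.59 ± 0.22 in RIS cells. In the next bin, which holds the 3' end of GLI3, it was 0.32 ± 0.09 in growing and 0.47 ± 0.05 in RIS cells. Averaged over the stretch between GLI3 and C7orf25, where most bins had too few contacts with INHBA to be tested singly, the log2 value was -1.84 ± 0.24 in growing and -0.74 ± 0.23 in RIS cells. The neighbours of INHBA were also higher with this stretch in RIS. The bins between SUGCT and INHBA were at -2.02 ± 0.14 in growing and -1.25 ± 0.20 in RIS cells. Those between INHBA and GLI3 were at -0.39 ± 0.09 and -0.11 ± 0.07. These segment averages were defined on the annotation after the profiles had been seen and carry no test.

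Between conditions, the average of the INHBA promoter over all bins of SUGCT was lower in RIS, and that over all bins of GLI3 was higher. Of the 87 partner bins of the INHBA promoter in the window, 58 passed the filter on low values. These were 42 of 43 at lower coordinates and 16 of 44 at higher coordinates. The limma test on balanced values called 0 of these pairs, as it called 0% of pairs higher and 0.000196% lower over the 2037253 pairs tested across the genome. At an unadjusted p under 0.05 it counted 7 pairs as higher and 17 as lower, where 11.4% of all pairs passed in either direction. The voom test on recovered contacts called 5 pairs higher and 7 lower, against 0.816% of all pairs higher and 0.39% lower. The bin chr7:42160001-42200000 in GLI3, among the 7 pairs counted as higher, passed the filter only through the RIS libraries, and no summary of directions over the tested partners is given. These partners share a promoter bin and neighbour each other, and are not independent. Both genes were chosen with earlier results known. The shares over the genome, here and below, therefore give a scale and no unbiased test of these genes.

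The largest called drop was with the bin chr7:40800001-40840000 inside SUGCT, at 920 kb. Its observed/expected value was 6.46, 6.52 and 7.32 in growing 1, 2 and 3 and 3.59 and 4.37 in RIS 1 and 2. Both RIS libraries were below all growing libraries. On balanced values after loess, without division by the expected value, that was true of 15% of all pairs. The log2 difference was -0.82 ± 0.18 (SE) with an adjusted p of 0.292 by limma and -0.93 ± 0.13 with an adjusted p of 1.8e-06 by voom. Voom made this call with each library left out of the fit in turn, the only one of its calls for either promoter of which that was true. The filter, the loess step and the voom weights still came from all libraries, here and in the other fits with a library left out.

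The bin chr7:41040001-41080000, at 680 kb, was at 7.18, 8.07 and 8.57 in growing and 5.71 and 5.64 in RIS libraries. Its log2 difference was -0.67 ± 0.11 by voom (adjusted p = 7.3e-05) and -0.59 ± 0.13 by limma (adjusted p = 0.297), and voom no longer called it without RIS 2 (adjusted p = 0.199). The other pairs that voom called lower were with the bins chr7:40600001-40640000 and chr7:40840001-40880000 in SUGCT, chr7:41000001-41040000 (which holds LINC01450) and chr7:41160001-41200000 between SUGCT and INHBA, and chr7:41680001-41720000, the bin of the 3' end of INHBA itself. Their log2 differences by voom ranged from -0.78 to -0.41. With a library left out in turn, the call at the 3' end of INHBA was made in 3 of 5 fits, lost without RIS 1 or RIS 2, and the others in 0 or 1 of 5. The strongest distant contact, with chr7:40240001-40280000, was not called, at a log2 difference of -0.48 ± 0.17 by voom (adjusted p = 0.156).

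The increase with the smallest adjusted p was with the bin chr7:41840001-41880000, 120 kb from the promoter bin on the GLI3 side. Its observed/expected value was 0.75, 0.79 and 0.75 in growing 1, 2 and 3 and 1.44 and 1.24 in RIS 1 and 2, so that the contact went from below to above the mean of its distance. The log2 difference was 0.79 ± 0.12 by voom (adjusted p = 3.6e-05) and 0.82 ± 0.13 by limma (adjusted p = 0.255, the smallest of this profile). Without RIS 1 the voom call was lost (adjusted p = 0.0973). Voom also called the bins chr7:41880001-41920000 (0.69) and chr7:41960001-42000000 (0.56) higher, the latter at the deep border, and the bin chr7:42880001-42920000 at the far border of the GLI3 domain, with a log2 difference of 1.37 ± 0.35. That last contact rested on few reads, 17, 10 and 7 in growing 1, 2 and 3 and 22 and 18 in RIS 1 and 2. On the SUGCT side the bin chr7:41560001-41600000 was called higher as well, at a log2 difference of 0.66 ± 0.14. This last call was made in 3 of 5 fits with a library left out and lost without RIS 1 or RIS 2, that at chr7:41880001-41920000 in 2 of 5, and those at the deep and the far border in 1 of 5.

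Across the genome, strong pairs had a median difference above 0. Over all tested pairs between 400 kb and 1.76 Mb, the 23283 with a mean observed/expected value over 4 had a median log2 difference of 0.14 (quartiles -0.08 and 0.38), and the 88408 with a value under 0.5 had a median of -0.14 (quartiles -0.66 and 0.35). The average of the INHBA promoter over SUGCT, its strongest segment, lay on the other side of 0 from the median of strong pairs, with a ratio of RIS to growing of 0.75. The same direction was seen for the 240 kb between INHBA and GLI3 as a whole: its log2 observed/expected value with SUGCT stood at 1.85, 1.81 and 1.81 in growing libraries and at 1.34 in both RIS libraries, without a test.

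**Figure D2:**
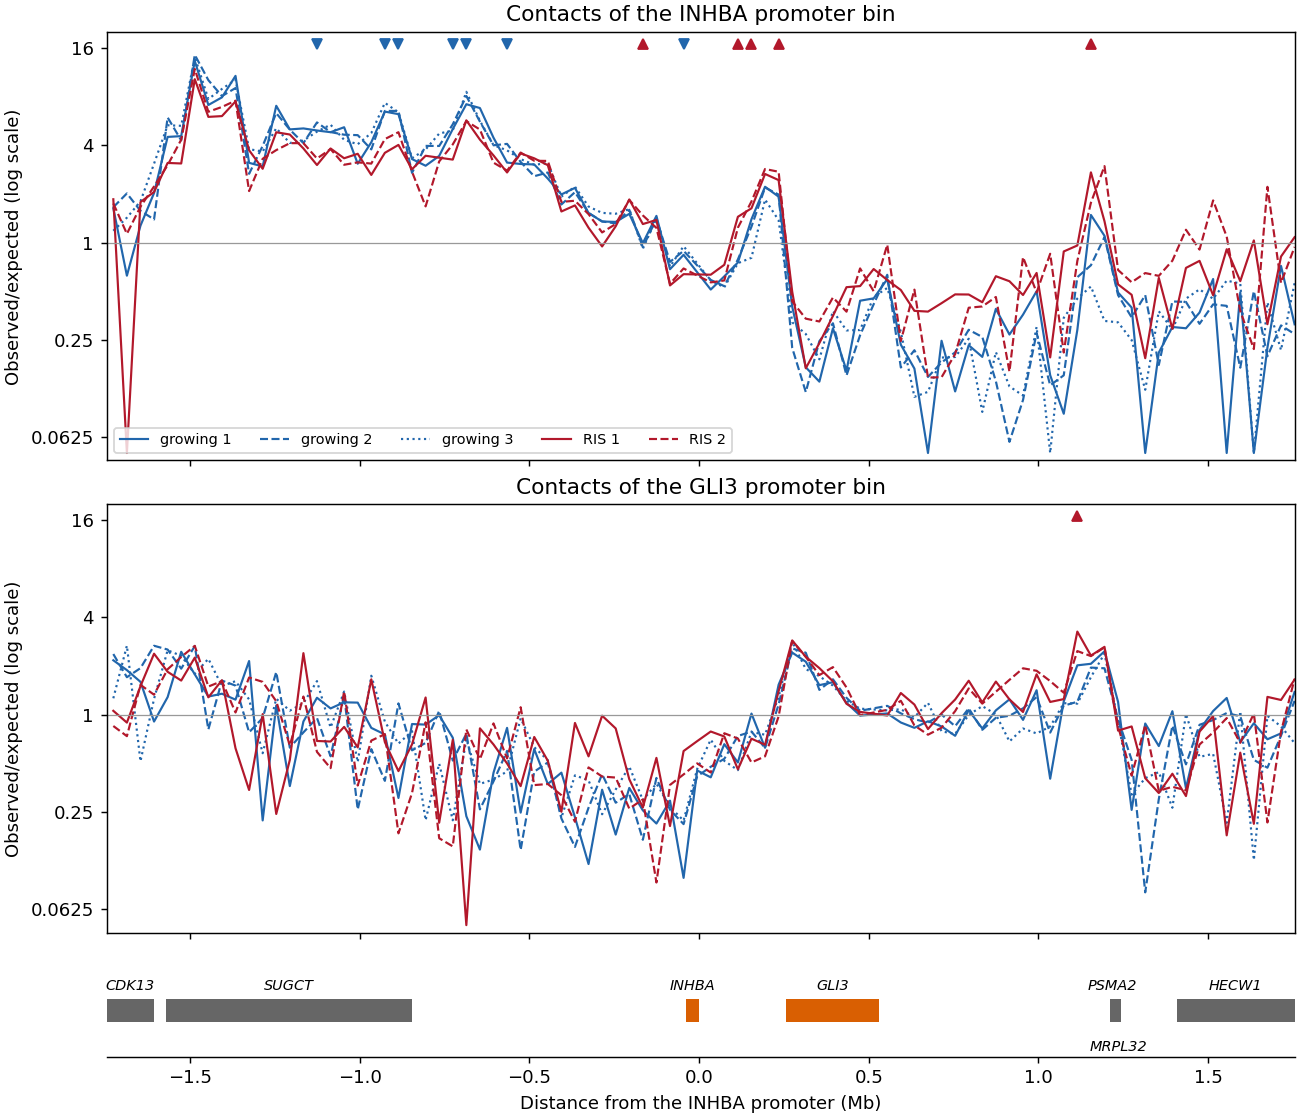
Observed/expected contacts of the INHBA promoter bin (top) and the GLI3 promoter bin (middle) in each library on a log scale against distance from the INHBA promoter in Mb, with the genes below. Triangles mark pairs called by voom, 5 higher (up) and 7 lower (down) for INHBA and 1 higher for GLI3, and values under 0.05 are drawn at 0.05.

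The promoters of other genes in the window served as further partners. With the bin of the MPLKIP and SUGCT promoters, INHBA had an observed/expected value of 5.26 ± 0.72 in growing and 3.06 ± 0.07 in RIS cells, with a log2 difference of -0.74 by voom (adjusted p = 0.226). With the C7orf25 promoter bin the value was 0.84 ± 0.44 in growing and 2.16 ± 1.14 in RIS cells, where RIS 2 stood at 2.97 and RIS 1 at 1.36 (voom adjusted p = 0.062). The promoter bins of PSMA2 and MRPL32 and of HECW1 had too few contacts with INHBA to be tested.

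The study's own pairing of INHBA with 13 putative enhancers covers 19 bins of the profile, 15 on the lower side and 4 on the higher side. The study chose these elements on the same libraries. Their directions of change are no independent evidence and are not counted here.

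The GLI3 promoter bin had a flatter profile. Its 2 highest values at 120 kb or more, averaged over all libraries, were near the ends of its own domain, with the 3' bin of GLI3 (chr7:42000001-42040000, 2.42, 2.57 and 2.84 in growing and 2.88 and 2.86 in RIS libraries) and with the C7orf25 promoter bin (2.27 ± 0.29 and 2.62 ± 0.01), the latter at 680 kb and 1 bin beyond the far border. The next were chr7:42040001-42080000 in GLI3 and 2 bins of SUGCT, far outside this domain. The SUGCT bins were chr7:40240001-40280000 (2.08 ± 0.51 in growing and 2.46 ± 0.29 in RIS cells) and chr7:40200001-40240000 (2.23 ± 0.27 and 1.95 ± 0.46). They lay 2000 and 2040 kb away and rested on at most 10 contacts in any library. Limma called 0 of its 43 tested partners, with 7 higher and 0 lower at an unadjusted p under 0.05, and voom called 1 higher and 0 lower, beside the 11.4% of all pairs at an unadjusted p under 0.05 and the 0.816% higher and 0.39% lower by voom. The called pair was with chr7:42840001-42880000, an intergenic bin next to the far border. Its observed/expected value was 2.02, 1.203 and 1.17 in growing 1, 2 and 3, against 3.27 and 2.48 in RIS 1 and 2, and the log2 difference was 0.91 ± 0.21 by voom (adjusted p = 0.0115), a call lost without growing 2, growing 3, RIS 1 or RIS 2, with adjusted p up to 0.323, and kept without growing 1. The other partners with the smallest limma p all lay in the stretch between GLI3 and C7orf25. Averaged over that stretch the log2 value was 0.14, 0.09 and 0.01 in growing 1, 2 and 3, against 0.56 and 0.55 in RIS 1 and 2, without a test.

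The strongest contact of any GLI3 bin at 400 kb or more joined both ends of the domain, the 3' bin of GLI3 and the border bin chr7:42880001-42920000, 880 kb away. Its observed/expected value was 9.56, 9.95 and 6.80 in growing 1, 2 and 3, against 12.04 and 11.7 in RIS 1 and 2, with a log2 difference of 0.36 by voom (adjusted p = 0.236) and 0.34 by limma (adjusted p = 0.476). This pair was chosen for its level over all libraries.

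Contacts between INHBA and GLI3 were few in both conditions, and the observed/expected value of both promoter bins was higher in both RIS libraries. The INHBA promoter bin and the GLI3 promoter bin shared 22, 23 and 23 recovered contacts in growing 1, 2 and 3 and 22 and 19 in RIS 1 and 2. Balanced and scaled to a common total, the pair was at 8.50, 7.77 and 8.13 in growing and 11.6 and 8.11 in RIS libraries. These values overlapped, so the groups were apart only after division by the expected value. On the log2 observed/expected scale the pair was at -1.15, -1.27 and -1.11 in growing and -0.54 and -0.999 in RIS libraries, with a difference of 0.40. Both RIS libraries were above all growing libraries and RIS 1 carried most of the difference, which was 0.18 without it. By limma the pair had an adjusted p of 0.686. Over all tested pairs, 15.2% had both RIS libraries above all growing libraries. That share was counted on balanced values after loess, without division by the expected value, and is no matching background for this separation. With the next bin, chr7:42280001-42320000, where the longest annotated form of GLI3 begins, the observed/expected value of INHBA was 0.595, 0.633 and 0.524 in growing 1, 2 and 3, against 0.587 and 0.970 in RIS 1 and 2. There the libraries overlapped, and RIS 2 alone was above the growing libraries.

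With the 7 bins of the GLI3 gene body together, the INHBA promoter bin had log2 observed/expected values of -1.77, -2.01 and -1.67 in growing and -1.22 and -1.16 in RIS libraries. The difference was 0.62, or 1.54-fold, and the groups did not overlap (two-sided exact permutation p = 0.1, the smallest that 3 against 2 libraries allow). How often averages of this kind separate over the genome was not computed. All values stayed below 0, so that the INHBA promoter met the GLI3 gene less often than the mean of the distance in every library. The gene body with itself was at 0.49 ± 0.05 in growing and 0.59 ± 0.00 in RIS cells (exact p = 0.2), a 1.07-fold difference.

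The INHBA promoter was less one-sided in both RIS libraries. The log2 ratio of its contacts with the 1 Mb at higher coordinates over the 1 Mb at lower coordinates was -1.48, -1.59 and -1.87 in growing 1, 2 and 3 and -0.84 and -0.87 in RIS 1 and 2 (exact p = 0.1). All libraries stayed below 0, with a difference of 0.79, or 1.73-fold. It was 0.69 within the libraries with few duplicates and 1.001 within the others. With both neighbouring bins included it was 0.47. For the GLI3 promoter the ratio was -0.23 ± 0.02 in growing and -0.07 ± 0.07 in RIS cells (difference 0.16, exact p = 0.1), and 0.05 with both neighbours included.

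**Figure D3:**
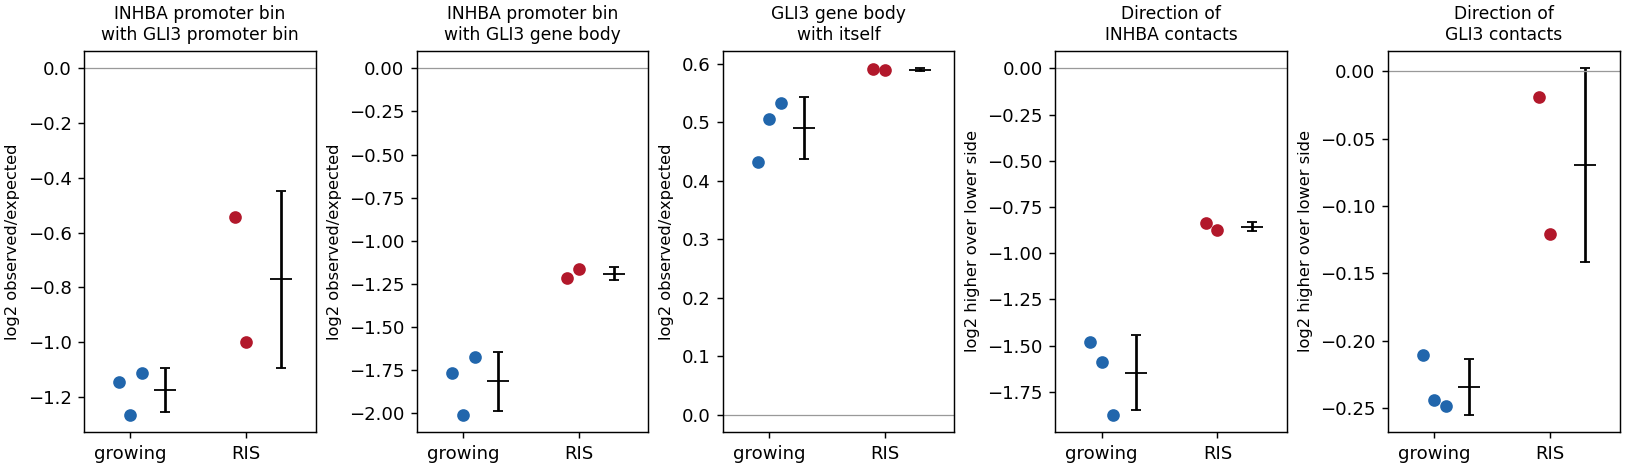
Log2 observed/expected contacts of the INHBA promoter bin with the GLI3 promoter bin and gene body and of the gene body with itself, and log2 ratio of contacts with higher over lower coordinates for both promoter bins, with a point for each library and the mean ± SD beside it. Both RIS libraries lie above all 3 growing libraries in each panel. The panels share bins and contacts, and how often such values separate over the genome was not computed.

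The insulation score rose over INHBA and in most bins behind GLI3 up to the end of the window, but was not called changed at GLI3. By limma 46 of 88 bins of the window were called higher in RIS and 2 lower, against 24.9% higher and 28.2% lower of the 68187 bins tested across the genome, where the median difference was 0.0018. At the INHBA promoter bin the score was -1.13, -1.18 and -1.24 in growing 1, 2 and 3 and -0.87 and -0.94 in RIS 1 and 2. The difference was 0.28 ± 0.04 (SE, adjusted p = 0.0011), and it was called with each library left out and with windows of 240 kb and 1 Mb. Both RIS libraries were above all growing libraries, as for 36% of all bins.

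The maximum of the window was next to it, at chr7:41760001-41800000, which holds the CTCF match on the INHBA side, with a difference of 0.40. From the 3' end of INHBA to GLI3, 7 of 8 bins were called higher. The exception was the deep border, with a difference of 0.11 ± 0.07 (adjusted p = 0.204). That border was called higher without growing 3 (0.18), within the libraries with few duplicates (0.26) and with a window of 1 Mb (0.30), and its difference was -0.01 with a window of 240 kb. Over the GLI3 gene 0 of 7 bins were called by limma, and 0 had an unadjusted p under 0.05, while 40655 of the 68187 bins of the genome had one, with differences from -0.00 to 0.06. At the GLI3 promoter bin the score was 0.30 in both conditions (difference -0.00 ± 0.03, adjusted p = 0.935), but by limma it was called lower with a window of 240 kb, at -0.15 (adjusted p = 0.0224), and higher with a window of 1 Mb, at 0.16 (adjusted p = 0.003).

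In the stretch between GLI3 and C7orf25, 14 of 16 bins were called higher, by up to 0.31. The border at its end, chr7:42880001-42920000, was at -0.68, -0.65 and -0.56 in growing and -0.31 and -0.34 in RIS libraries (0.30 ± 0.04, adjusted p = 7.2e-04). From C7orf25 to the end of the window 12 of 15 bins were called higher, by up to 0.30. Inside SUGCT 8 of 19 bins were called higher, among them the dip at chr7:40800001-40840000 (0.19 ± 0.05, limma adjusted p = 0.0084), which was not called without RIS 1 (adjusted p = 0.0571). In the stretch between SUGCT and INHBA 5 of 19 bins were called higher, by up to 0.13, and 2 lower. The latter were chr7:41240001-41280000 and chr7:41280001-41320000, with differences of -0.11 each. The border at the SUGCT promoter was not called (0.03 ± 0.06, adjusted p = 0.671). Without RIS 1 the number of bins called higher was 27.

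**Figure D4:**
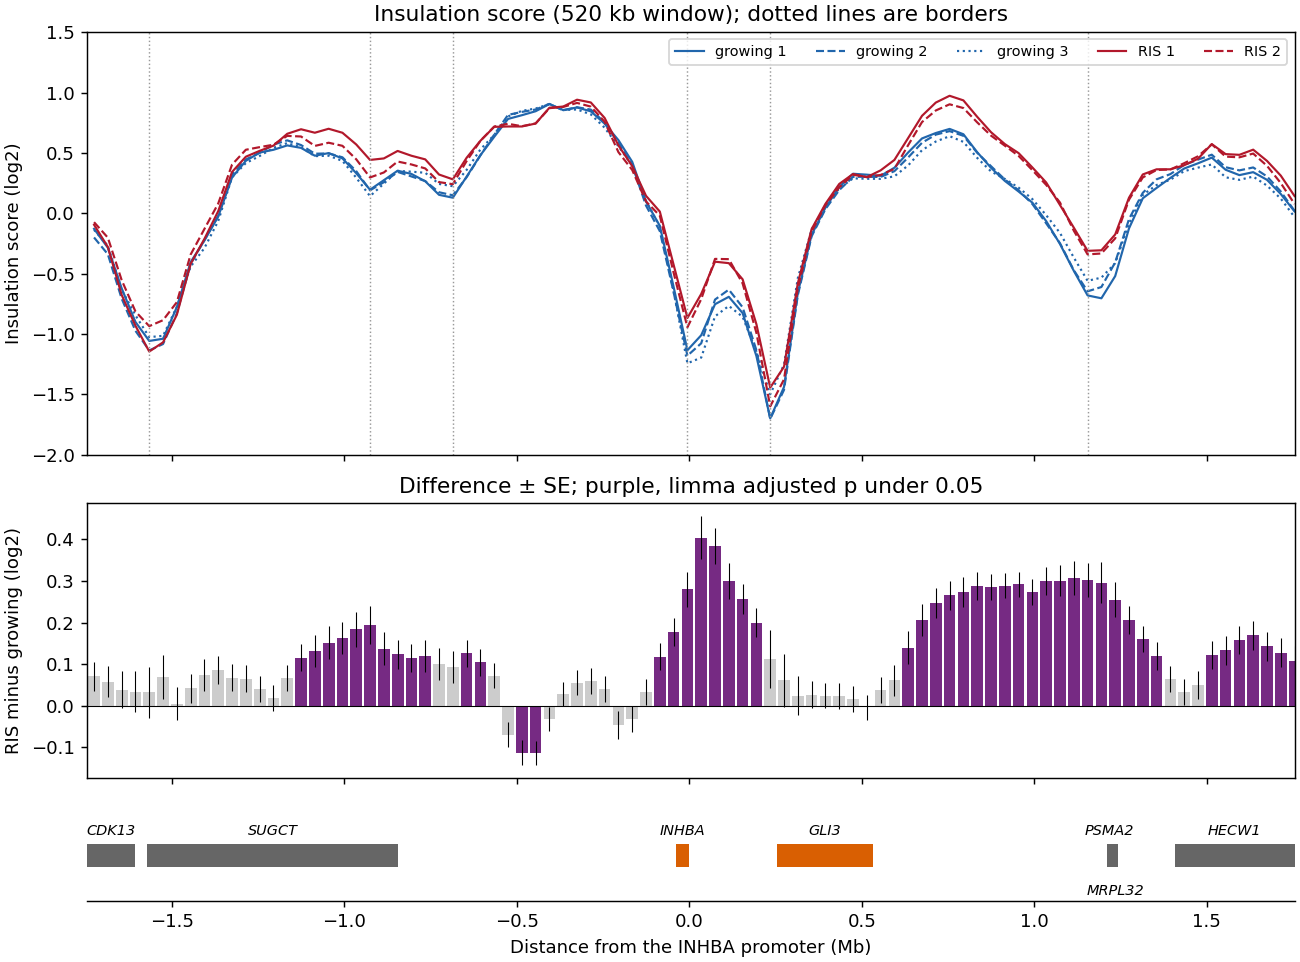
Insulation score of each library along the window (top, log2) and its difference between RIS and growing with the SE (middle) against distance from the INHBA promoter in Mb, with the genes below. The 46 bins called higher lie over SUGCT and the start of the stretch behind it, around INHBA and behind GLI3, the 2 called lower lie between SUGCT and INHBA, and the bins of GLI3 are grey.

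Both promoters had compartment scores above 0 in all 5 libraries, and the score changed sign behind GLI3. The score is the first component of the correlation of distance-corrected contacts in bins of 120 kb, positive for A. In growing cells the 15 bins up to the INHBA promoter had scores between 0.77 and 1.32, and beyond it the score was 0.35 at the 3' end of GLI3, 0.54 at the GLI3 promoter and between -0.82 and 0.21 in the 10 bins behind it. In RIS the far side was higher: 13 of 30 bins were called higher and 1 lower by limma, against 22.1% and 16.5% of the 23299 bins of the genome. All 10 bins above the GLI3 promoter were called higher, by 0.48 to 0.74, and 6 of these went from a mean below 0 to a mean above 0, as did 6.68% of the bins of the genome. In growing cells 10% of these bins had a mean above 0, against 44.2% of all bins, so more of them could change sign. Among the 6, RIS 2 was still at -0.136 in chr7:42480001-42600000, and growing 1 was already at 0.105 in chr7:43440001-43560000. Both RIS libraries were above all growing libraries in each of these 10 bins, as in 33.1% of all bins.

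The bin of the GLI3 promoter was at 0.44, 0.60 and 0.59 in growing and 0.85 and 0.73 in RIS libraries, a difference of 0.25 ± 0.07 (adjusted p = 0.034). It stayed above 0 in all libraries, and the call was lost without growing 1, growing 2, RIS 1 or RIS 2. The bin of the INHBA promoter, by the same limma test, was at 1.296, 1.32 and 1.19 in growing and 1.06 and 1.12 in RIS libraries, a difference of -0.18 ± 0.06 that was not called (adjusted p = 0.0556). Both RIS libraries were below all growing libraries, as in 31.9% of all bins. It was called without growing 3. The bin called lower was chr7:41280001-41400000, in the stretch between SUGCT and INHBA, with a difference of -0.22 (adjusted p = 0.015). No bin was called lower without RIS 1 or RIS 2, within the libraries with few duplicates, after quantile normalization or in bins of 200 kb. Without RIS 1 there were 6 bins called higher in the window.

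**Figure D5:**
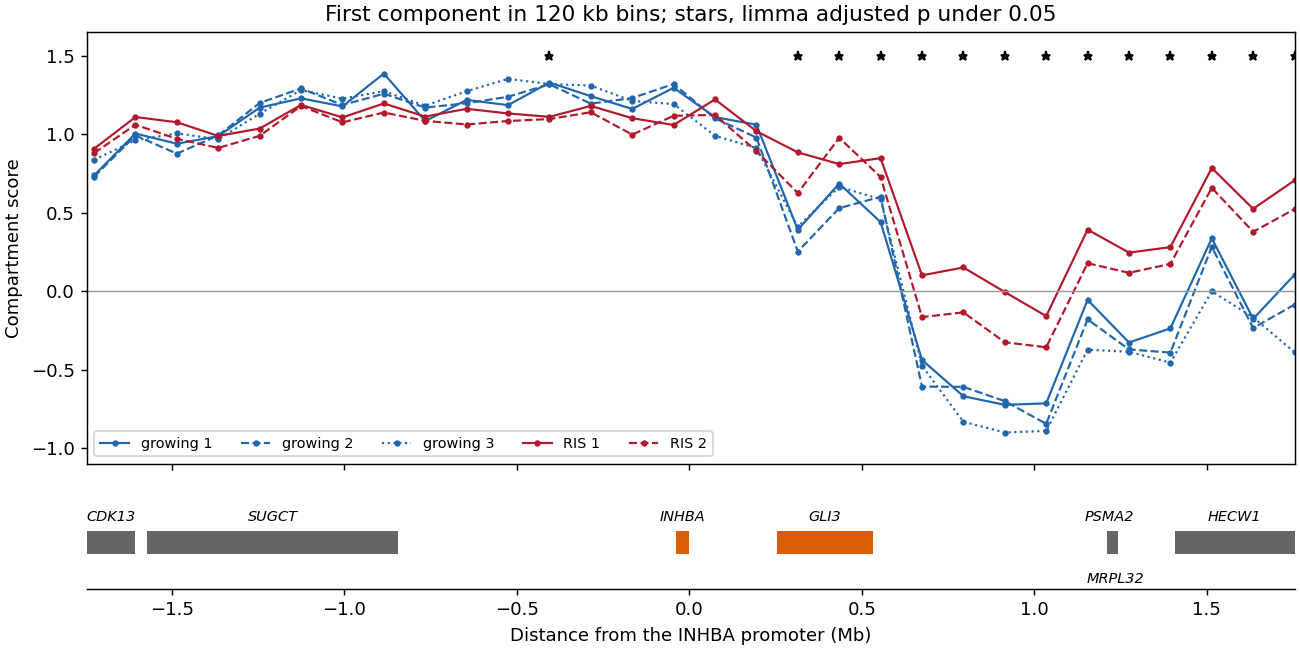
Compartment score of each library in bins of 120 kb against distance from the INHBA promoter in Mb, with stars at bins called by limma and the genes below. All libraries are above 0 up to GLI3, and behind GLI3 both RIS libraries lie above the 3 growing libraries.

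The preference of each promoter bin for A over B, taken from its contacts beyond 2 Mb with the 20% of bins of chromosome 7 that had the highest scores over the 20% with the lowest, gave no call by limma, while 21 of 87 tested bins of the window were called higher. On the log2 scale it was 3.50 ± 0.18 in growing and 3.92 ± 0.59 in RIS cells for INHBA (adjusted p = 0.433), and 1.98 ± 0.13 and 3.04 ± 0.17 for GLI3 (adjusted p = 0.0546). Both RIS libraries were above all growing libraries for GLI3, as for 29.5% of all bins. Over the genome 9.2% of bins were called higher and 10.1% lower, and none with a library of growing cells left out. With each library set to the same median and SD the differences were -0.98 for INHBA and -0.03 for GLI3, on a scale where the median of all bins was -0.31.

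The INHBA promoter bin also had a larger share of its contacts with other chromosomes in RIS. It was 6.21%, 6.62% and 6.15% in growing 1, 2 and 3 and 12.2% and 10.9% in RIS 1 and 2, while the share within the window was 83.7% ± 0.7 in growing and 76.6% ± 2.1 in RIS cells (exact p = 0.1 for each). For GLI3 the share with other chromosomes was 12.4% ± 1.3 and 13.4% ± 1.3 (exact p = 0.5), and that within the window 67.4% ± 0.7 and 71.0% ± 1.7. Over all bins both RIS libraries were above all growing libraries in 77.9% and below them in 1.94%, with a median ratio of 1.25. Before balancing, the INHBA promoter bin had a coverage of 1.15 ± 0.06 in growing and 1.12 ± 0.11 in RIS cells as log2 over the median bin, with overlapping libraries. It holds 18 HindIII sites, where the median bin holds 12.

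Other genes of the activin and Hedgehog pathways were compared by the insulation score of their promoter bins. Of 34 listed genes 33 were tested, with 9 called higher and 9 lower by limma, beside the 24.9% and 28.2% of all bins. Both counts lay near these shares, and no test of the lists was run. Without RIS 2 there were 6 called higher and 2 lower. Among 16 tested activin genes, 6 were higher and 3 lower. The higher ones were the ligand genes INHBA and INHBB (0.22 ± 0.03, adjusted p = 0.0011), the antagonist FST (0.14), the signal transducers SMAD2 (0.15) and SMAD4 (0.13) and the type II receptor ACVR2B (0.09). The lower ones were ACVR2A, a type II receptor (-0.25 ± 0.05, adjusted p = 0.0027), INHBE (-0.23) and INHBC (-0.09). Among 17 Hedgehog genes 3 were higher, the co-receptors BOC (0.19) and GAS1 (0.14) and the receptor PTCH1 (0.15), and 6 were lower, among them GLIS2 (-0.30), the ligand SHH (-0.28), the factor GLI1 (-0.23), KIF7 (-0.15) and the inhibitor SUFU (-0.14). GLI1 and INHBE lie in the same bin, which is counted once in each list. GLI3 was not among the called genes. The preference for A over B was called for 0 of 31 genes of these lists by limma, where 9 had an unadjusted p under 0.05, as had 26553 of the 67399 bins tested across the genome.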

How the data were processed

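Hi-C of 3 growing and 2 RIS libraries was analysed. Per the study's methods, HiC-Pro aligned the reads to hg19 and artefacts and duplicate reads were taken out. For each library apart the authors deposited the signal as ICE-balanced contacts per pair of 40 kb bins, each library with the same total of 200000000 over both orientations. Balancing equalizes the sum of every bin, so these values do not show depth. With 1 correction factor for each bin, the values came back as whole contacts, which gave the depth. The tolerance was 0.05 for small values and widened with the count, so that any value met it among the largest counts. The study calls the libraries biological replicates.

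Balanced values were scaled to the mean of the recovered totals. Pairs up to 2.4 Mb apart with a mean of at least 5 were tested across the genome with limma on log2(value + 0.5) after loess (span 0.3, 4 iterations), with Benjamini-Hochberg adjustment at 5%, and with voom on recovered contacts as an alternative. Insulation scores (520 kb window, border prominence 0.1), compartment scores and preferences were tested with limma over all bins. For single values a two-sided exact permutation test was used, which with 3 against 2 libraries cannot go below p = 0.1. Depth limits distant pairs most, and intervals from counts were not used.

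The genes, lists and segments were chosen with earlier results of these data known. Named were the members, protein-coding genes of the window, partner bins with their promoters, the 5 bins with the highest level at 120 kb or more, the 5 with the smallest limma p, all borders, and pathway genes called by the test, of which 1 is not reported here. Among 20000 simulated pairs with counting noise alone, limma found 25.5% and voom 28% of 2-fold changes, and 64% and 61% of 4-fold changes. With a dispersion of 0.02 between libraries these were 7.5% and 15%, and 60.5% and 57.5%. The simulation changed 200 of the 20000 pairs and had no loess step. The data were adjusted over 2037253 pairs, so these shares do not give the power of the tests on the data. Of 30 borders in a simulated matrix, 100% were recovered to within 1 bin, among 41 called. Capture Hi-C was not used here. Annotation was GENCODE on GRCh37. Tools were Python 3.11.15, numpy 2.4.6, scipy 1.17.1, R 4.3.3 and limma 3.58.1.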

Additional observations from a re-analysis of the deposited data

How the results depend on the processing

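The voom fits with a library left out or with the replicate block were chosen after seeing the data. For pairs, a library was left out of the last fit only, after the filter, loess and voom weights had been set on all libraries. The number of pairs called over the genome by limma (0 higher, 4 lower) was 16620 higher and 7937 lower with voom, 163 and 653 without a variance trend, and 210 and 3289 in the libraries with few duplicates. The lower calls were 0 after division by the expected value, 8 with a pseudocount of 1, 2 each with a minimum of 10, a minimum of 1 or a limit of 2 Mb, and 1 with the replicate block. With a library left out, limma gave 0 to 189 higher and 0 to 6761 lower pairs, and voom 702 to 12309 and 494 to 6083. For INHBA, voom gave 5 higher and 7 lower, in place of 0 and 0, and with a library left out 0 to 4 higher and 1 to 7 lower. For GLI3 voom gave 1 higher, and 0 to 1 with a library left out. Scaling to the total alone shifted the median of all pairs to -0.11, with no change of direction for the named pairs.

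Along the window, the insulation bins called higher ranged from 27 to 49 and those lower from 0 to 2 with a library left out, and the lower ones were 6 with a window of 240 kb and 0 from recovered contacts. The compartment bins called higher ranged from 6 to 13 and lower from 0 to 2, and bins of 200 kb gave 8 higher and 0 lower. The lower bins were 3 with the replicate block, and 0 in the libraries with few duplicates and after quantile normalization. The pathway genes called lower in insulation ranged from 2, without RIS 2, to 9, and those called higher in preference from 0 to 2. The preference difference changed sign when libraries were set to the same median and SD, at -0.98 for INHBA and -0.0272 for GLI3. That setting also moved the median difference of all bins, to -0.31 from 0.085 in the main fit.

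Differences near 0 changed sign as well. Growing 3 has no RIS library of its number, so the replicate block takes no difference from it. The limma differences with the block therefore equal those without growing 3 and are no separate check. For GLI3 with the bin at 40.16 Mb the difference ranged from -0.345 to 0.117 with a library left out, and was 0.117 with the replicate block and 0.096 in the libraries with few duplicates. With the bin at 42.04 Mb it ranged from -0.0476 to 0.135, and was -0.0476 with the replicate block and -0.0322 in the libraries with few duplicates. With the bin at 40.20 Mb it ranged from -0.365 to 0.0637. The insulation difference at 40.16 Mb ranged from -0.0723 to 0.138, and was -0.0487 in the libraries with few duplicates and -0.0375 with a window of 240 kb. It was -0.0628 at 41.04 Mb with a window of 1 Mb, and -0.00549 at 41.96 Mb with 240 kb. At the GLI3 promoter bin it ranged from -0.0118 to 0.00531, and was 0.156 with 1 Mb and 0.0254 from recovered contacts.

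The labels give growing 1 and 2 the numbers of RIS 1 and 2 but name no shared batch. Deviations of insulation from the group means correlated at 0.11 for number 1 and -0.20 for number 2, and at 0.23 for growing 3 with RIS 2. With 2 RIS libraries, the deviations of RIS 1 and RIS 2 mirror each other, so these correlations cannot decide whether the numbers pair the libraries. The numbers were not taken to pair them. With the replicate block, voom called 2 pairs of INHBA higher and 0 of GLI3.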
